A study of Mus musculus with 8 samples.

Results

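Cathepsins are the proteases of the lysosome, and 10 of their genes were followed here in fat cell precursors with and without Irf3, a transcription factor that drives interferon genes. The genes were Ctsa, Ctsb, Ctsc, Ctsd, Ctsf, Ctsh, Ctsk, Ctsl, Ctss and Ctsz, and every probe of them in the deposited raw table was taken, 16 of 25697 probes and 10 of 16593 genes with a probe. A probe entered the tests if its detection p-value, the array's measure of signal above its negative controls, was under 0.05 on 2 or more arrays of 8 (called above background here). All 10 genes passed, and with them 9758 genes were tested. The set was selected on the measured genotype difference, since Ctsc was lower in knockout on its 3 probes, so the difference between the genotypes, of Ctsc and of the other 9 genes, is given as a description: no p-value is given for it, and nothing is read from the count of members that passed that fit. The change with day and the difference between the genotypes in that change were not used for the choice, and these were tested.

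Preadipocytes, the precursors of fat cells, were taken from white fat of wildtype mice and of mice lacking Irf3 and were differentiated in a high-glucose medium with insulin and ascorbate. Total RNA was taken on days 3, 5, 7 and 9 and read on Illumina bead arrays, 1 array for each genotype and day, so no condition had a replicate. The wildtype cells carried no other stated change, no treatment was given beyond the medium, and the strain, the age and sex of the mice, the number of animals and the part of Irf3 deleted are not given in the sources used here. Whether the arrays of a genotype came from 1 culture is not given either, and p-values then measure only the spread of these arrays around the fits. The mean raw intensity of an array lay between 638 (wildtype, day 3) and 1026, and 47.6% to 52.2% of its probes were above background. Irf3 itself has 3 probes, each with signal above background on every one of the 8 arrays. The one with the highest signal, ILMN_2664319, read 11.0003, 11.21, 11.38 and 11.35 in log2 intensity in wildtype and 10.75, 10.72, 10.36 and 11.09 in knockout, a mean difference of -0.50 ± 0.17 (SE; limma adjusted p = 0.166). ILMN_1229320 differed by -0.62 ± 0.15 and ILMN_1224505 by -0.31 ± 0.19 (adjusted p = 0.0752 and 0.431, fit of single probes). Irf3 transcript was thus detected in every array labelled knockout, and since the part deleted is not given, these probes do not check the genotype labels. In a check of the labelled cell type, 10 of 14 adipocyte markers tested rose with day and none fell. Of 12 fibroblast and preadipocyte markers 1 rose (Dlk1) and 1 fell (Dpp4). Over all tested genes 8.54% rose and 8.25% fell. Of 23 macrophage markers tested 18 rose too, so a rise with day does not by itself identify fat cells.

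A cathepsin is made as an inactive precursor, carried to the lysosome on sugar tags, and activated there by the removal of its propeptide. Most members are cysteine proteases of the papain family (Ctsb, Ctsc, Ctsf, Ctsh, Ctsk, Ctsl, Ctss and Ctsz), while Ctsd is an aspartic protease and Ctsa a serine carboxypeptidase. Cathepsin C, also called dipeptidyl peptidase I, trims dipeptides from the start of proteins and is known for activating the serine proteases in the granules of leukocytes and mast cells. Cathepsin S is known in antigen-presenting cells, where it cuts the invariant chain of class II molecules, and cathepsin K is known for cutting collagen. In adipose tissue, cathepsins are made both by fat cells and their precursors and by macrophages.

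Promoter sequence is shown for the 4 genes that rose with day, because the change with day was the measure tested here that these members passed. Each is the 250 bases before the RefSeq start of the gene on GRCm38.p6, 5′ to 3′ along the gene, with matches to any of 4 short motifs in capitals. The motifs, searched on both strands, were CACGTG (the E-box at the centre of the CLEAR element of lysosomal genes), the interferon-stimulated response element (GAAA and GAAA with any 2 bases between them), GAGGAA (an ETS site of the type that PU.1 binds) and AGGTCA (the half-site of nuclear receptors).
Ctsc (chr7:88277835-88278084, plus strand): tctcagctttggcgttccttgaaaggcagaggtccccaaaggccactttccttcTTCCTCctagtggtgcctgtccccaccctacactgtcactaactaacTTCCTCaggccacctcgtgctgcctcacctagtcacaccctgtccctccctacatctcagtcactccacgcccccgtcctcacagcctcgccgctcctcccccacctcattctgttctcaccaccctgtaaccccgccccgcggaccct
Ctss (chr3:95526536-95526785, plus strand): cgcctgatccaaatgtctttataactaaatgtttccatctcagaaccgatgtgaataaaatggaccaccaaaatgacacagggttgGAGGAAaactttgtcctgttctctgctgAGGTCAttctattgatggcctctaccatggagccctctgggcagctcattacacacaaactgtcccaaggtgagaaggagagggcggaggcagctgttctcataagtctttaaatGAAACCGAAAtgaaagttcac
Ctsd (chr7:142387828-142388077, minus strand): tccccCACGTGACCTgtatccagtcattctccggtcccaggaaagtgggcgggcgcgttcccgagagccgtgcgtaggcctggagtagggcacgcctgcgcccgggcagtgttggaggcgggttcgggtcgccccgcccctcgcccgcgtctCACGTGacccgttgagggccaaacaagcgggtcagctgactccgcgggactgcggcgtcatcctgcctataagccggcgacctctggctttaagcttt
Ctsf (chr19:4854915-4855164, plus strand): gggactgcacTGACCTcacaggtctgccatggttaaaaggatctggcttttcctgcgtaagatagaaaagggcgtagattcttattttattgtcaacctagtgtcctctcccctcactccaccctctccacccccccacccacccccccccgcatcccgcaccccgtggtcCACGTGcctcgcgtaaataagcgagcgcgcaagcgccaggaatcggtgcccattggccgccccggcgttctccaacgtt

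Of all 32851 promoter windows of that length in the table, 6.02% held the E-box, 2.98% the interferon-type element, 23.3% the ETS-type site and 14% the half-site. The window of Ctsc held 2 ETS-type sites, both read as TTCCTC along the gene, and none of the other 3 motifs. The window of Ctss held 1 interferon-type element close to the start (positions -21 to -12), together with 1 ETS-type site and 1 half-site. Ctsd held 2 E-boxes, the distal one overlapping a half-site, and Ctsf held 1 E-box and 1 half-site. A match is a description of these letters and not a site shown to be bound. In all, 8 of the 10 genes had a window in the RefSeq table. Beyond the 4 genes shown, the E-box stood in the window of Ctsl and in 1 of the 2 windows of Ctsa, a half-site stood in the other window of Ctsa, 2 ETS-type sites stood in that of Ctsk, and none of the 4 motifs in that of Ctsz.

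Ctsc stood apart in level between the genotypes on every day. Its probe of highest signal, ILMN_3008858, read a normalized log2 intensity of 9.83, 10.55, 10.87 and 11.29 in wildtype on days 3, 5, 7 and 9, and 5.48, 6.63, 7.47 and 8.50 in knockout. All 4 knockout arrays lay below all 4 wildtype arrays, which 3.52% of the tested genes also showed (2.31% showed the reverse), so that the order of the 8 levels ran from wildtype day 9 down to wildtype day 3 and then from knockout day 9 down to knockout day 3. With 1 array for each condition, neighbours in that order have no spread to be set against. Knockout minus wildtype was -4.35, -3.92, -3.39 and -2.78 on the 4 days. The mean of the 4 days was -3.61 ± 0.26 (limma's moderated SE), with the day 3 knockout value as measured. The standard deviation of the 4 daily differences themselves was 0.68.

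On the day 3 knockout array Ctsc was not above background on this probe (the deposited detection p-value was 0.0689), so only a lower limit can be given for that day's fold. With the knockout level set to the lowest normalized signal among probes above background on that array, 5.66, Ctsc was at least 18.0-fold lower in knockout on day 3, and at least 11.8-fold lower in the mean of the 4 days. The difference was 15.1-fold on day 5, 10.5-fold on day 7 and 6.87-fold on day 9, where both arrays were above background. In raw intensity, before any correction, ILMN_3008858 read 750 on day 3 and 2522 on day 9 in wildtype, and 180 and 499 in knockout.

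The other probes of Ctsc gave the same direction on all 4 days. ILMN_1238486 read 7.79, 8.64, 8.94 and 9.49 in wildtype and 5.03, 5.34, 6.05 and 6.85 in knockout. ILMN_3008859 read 8.33, 8.98, 9.74 and 9.88 in wildtype and 5.01, 5.63, 6.58 and 7.20 in knockout. On each of these probes every knockout array lay below every wildtype array, and neither probe was above background in knockout on day 3 or day 5. The lower limits of the fold on those days were 4.39 and 7.53 for the former and 6.35 and 9.55 for the latter. Their mean differences over the 4 days were -2.90 ± 0.16 and -3.13 ± 0.17 (SE, fit of single probes). Without background correction the mean difference of Ctsc was -2.51 in place of -3.61.

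**Figure D1:**
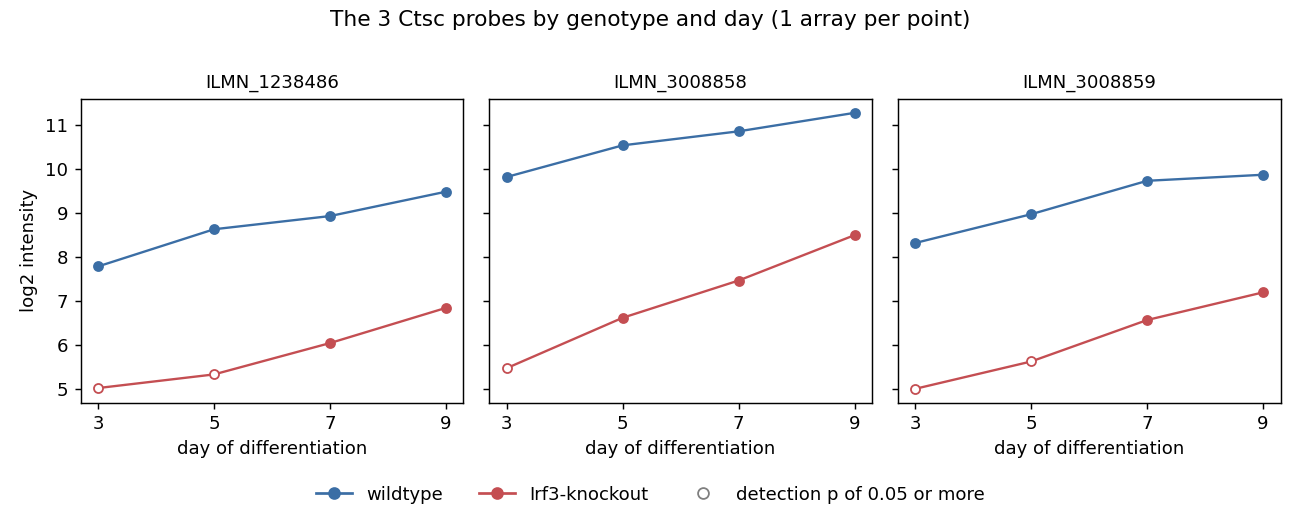
Normalized log2 intensity (y axis) of each of the 3 Ctsc probes against day of differentiation (x axis), 1 array per point, wildtype in blue and Irf3-knockout in red, with open points where the detection p was 0.05 or more. On each probe the 4 knockout arrays lie below the 4 wildtype arrays and the lines of both genotypes climb with day.

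Ctss differed in the opposite direction. Its only probe read 6.62, 6.78, 7.94 and 9.20 in wildtype and 7.92, 8.87, 10.05 and 10.48 in knockout, and all 8 arrays were above background. Each knockout array lay above the wildtype array of its day, by 1.29, 2.09, 2.11 and 1.27, but the groups overlapped, since wildtype on day 9 was above knockout on days 3 and 5. The mean difference was 1.69 ± 0.20 (limma's moderated SE), a level 3.23-fold higher in knockout. Without background correction it was 1.14.

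The levels of the other 8 cathepsins differed less between the genotypes, and their mean differences ran from -0.11 (Ctsk) to 0.39 (Ctsf). On the probe of highest signal none of these 8 had the same sign on all 4 days. Of the tested genes 13.8% were higher and 13% lower in knockout on all 4 days. In the genotype fit over all genes, 2 of the 10 members had an adjusted p under 0.05, Ctsc lower and Ctss higher, beside 4.85% of all tested genes, 2.74% higher and 2.11% lower. The same pair was at least 2-fold apart in 1 direction on all 4 days, Ctsc beside 0.717% of the genes that were lower by this rule and Ctss beside 0.81% that were higher. These counts are no test of the members, since the genotype difference chose the set. On the authors' deposited processed values 0 of the 10 had an adjusted p under 0.05 (limma), with mean differences there of -3.80 for Ctsc and 1.89 for Ctss. With no day term 1 of the 10 had. The median difference over the 10 genes was 0.081 beside -0.019 over all 9758.

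**Figure D2:**
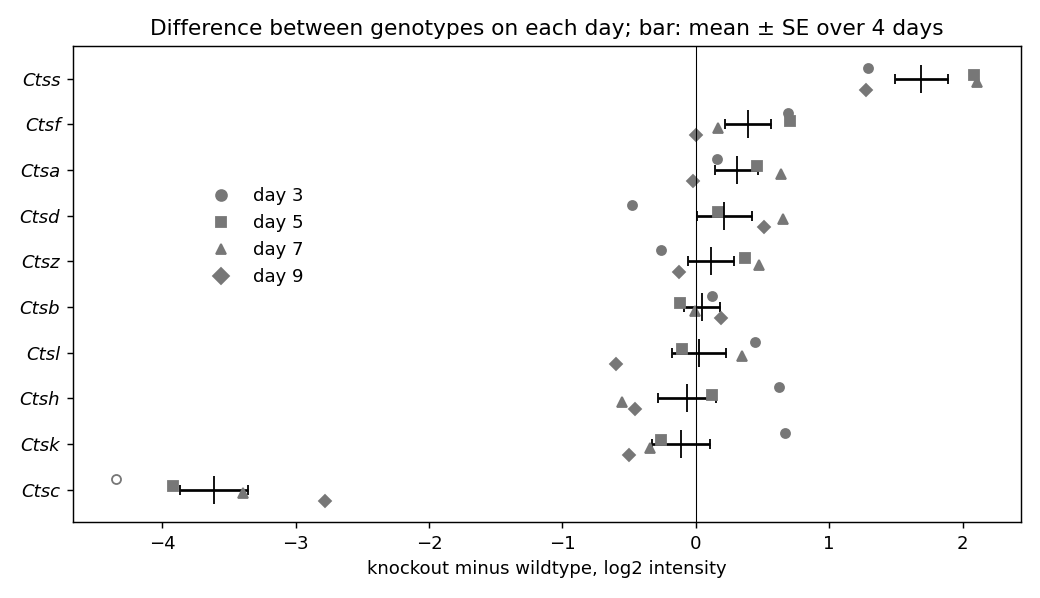
Knockout minus wildtype log2 intensity (x axis) of the 10 cathepsins, each on its probe of highest signal (y axis, ordered by the mean). There is 1 grey point per day and a black bar for the mean over the 4 days ± limma's moderated SE. The open point is Ctsc on day 3, when it was not above background in knockout. Ctsc lies between -4.35 and -2.78, Ctss between 1.27 and 2.11, and the points of the other genes between -0.60 and 0.70.

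Among the other cysteine cathepsins, Ctsb, an abundant lysosomal endopeptidase that also acts as a carboxydipeptidase, had the narrowest range. It read 14.40, 14.50, 14.43 and 14.43 in wildtype and 14.52, 14.38, 14.42 and 14.62 in knockout. Its genotypes overlapped, and its mean difference was 0.048 ± 0.13 (SE). The signal of Ctsb was high, and whether the upper end of the array's range narrowed it was not tested. Ctsl, an endopeptidase, lay between 6.20 and 7.04 in wildtype and between 6.19 and 6.94 in knockout, with a mean difference of 0.022 ± 0.20 (SE). Its only probe was above background on every array but close to it, at raw intensities of 153.6 to 300.6. Ctsz, a carboxypeptidase, lay between 10.84 and 11.42 in wildtype and between 10.73 and 11.66 in knockout on its main probe, and its 2 probes differed between genotypes by 0.11 ± 0.18 and 0.12 ± 0.14 (SE, fit of single probes).

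Ctsh, an aminopeptidase, and Ctsk, the collagen-cutting member, crossed over during the culture. Ctsh read 13.21, 13.85, 13.98 and 13.90 in wildtype and 13.83, 13.97, 13.42 and 13.45 in knockout. Ctsk read 12.87, 14.31, 14.18 and 14.17 in wildtype and 13.54, 14.05, 13.83 and 13.67 in knockout. For both genes the knockout array was the higher one on day 3 and the lower one on days 7 and 9. These orders rest on 1 array for each genotype and day. The difference in slope of Ctsk was -0.18 ± 0.12 per day (SE; limma adjusted p = 0.887). Without the wildtype day 3 array, the difference in slope was 0.045 for Ctsk and -0.097 for Ctsh. In wildtype Ctsk was higher by 1.44 on the log2 scale on day 5 than on day 3, and no higher after that. Those later levels were near that of Ctsb, and whether the array's upper range limited them was not tested.

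The members outside the papain family were Ctsa, a carboxypeptidase that also shields other lysosomal enzymes, and Ctsd, an aspartic protease. The main probe of Ctsa lay between 9.20 and 9.91 in wildtype and between 9.35 and 10.55 in knockout, with a mean difference of 0.31 ± 0.16 (SE). The 4 probes of Ctsa did not give 1 order on each day, and on ILMN_3120827 the difference ran from -0.30 on day 3 to 1.44 on day 9. ILMN_2681631 and ILMN_3045359 were higher in knockout on all 4 days, by 0.17 to 0.81 and by 0.038 to 0.49. The former was not above background in wildtype on days 3 and 5. Ctsd read 6.78, 7.36, 7.08 and 7.80 in wildtype and 6.30, 7.53, 7.73 and 8.32 in knockout, lower in knockout on day 3 and higher on the other 3 days. On day 3 its raw intensity, 179.9 in wildtype and 216.5 in knockout, was above background but close to it.

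**Figure D3:**
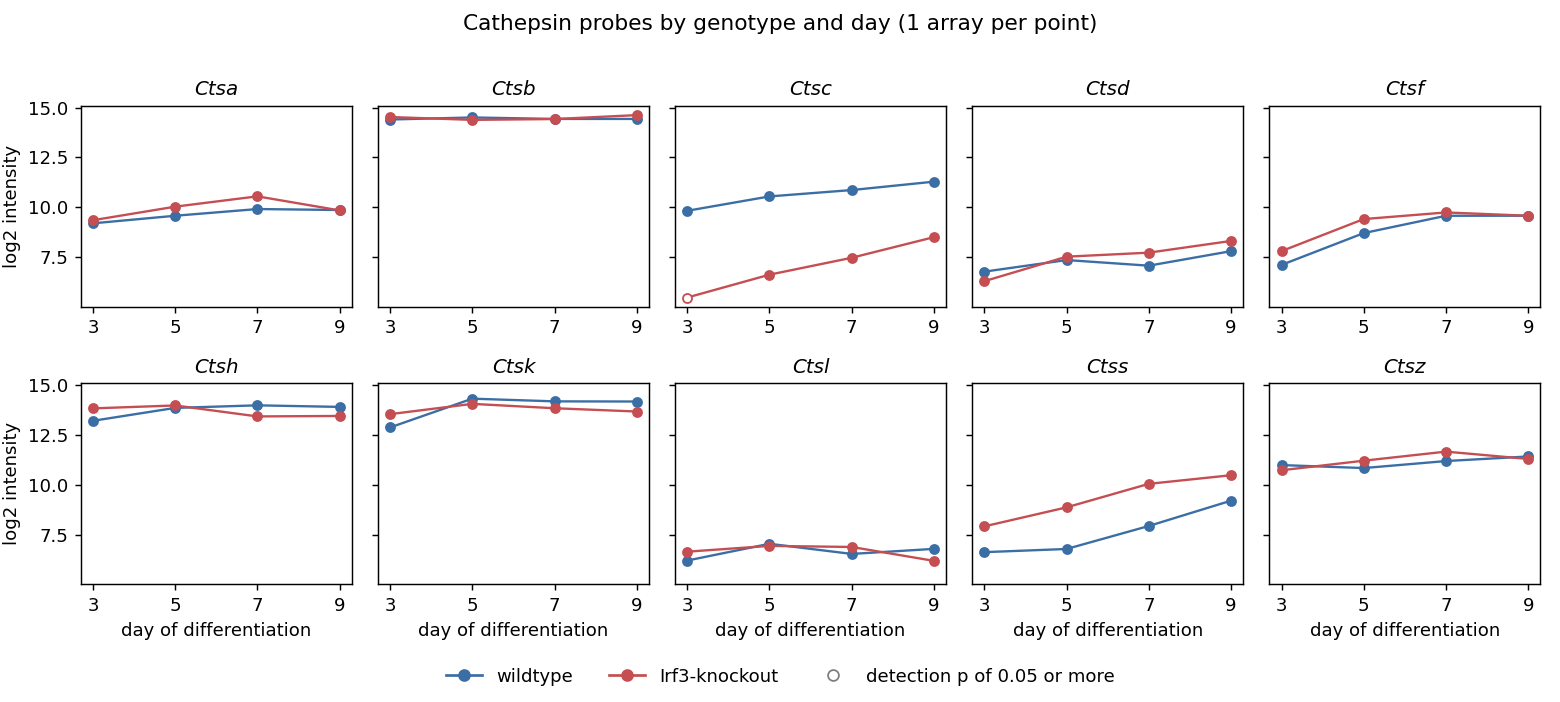
Normalized log2 intensity (y axis) of the main probe of each cathepsin against day of differentiation (x axis), 1 array per point, wildtype in blue and Irf3-knockout in red, with an open point where the detection p was 0.05 or more. The lines of Ctsc and Ctss keep apart on all 4 days, and those of the other 8 genes meet or cross. Levels of different probes are not on a common scale.

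Over days 3 to 9, 4 of the 10 cathepsins rose and none fell, by a slope fitted over both genotypes with limma (adjusted p under 0.05 over 9758 genes). Of all tested genes 16.8% changed, 8.54% rising and 8.25% falling. Ctss rose by 0.44 ± 0.045 log2 units per day (SE, 8 arrays; limma adjusted p = 0.00103), Ctsc by 0.37 ± 0.052 (adjusted p = 0.00376), Ctsf, a lysosomal cysteine protease, by 0.35 ± 0.072 (adjusted p = 0.0144) and Ctsd by 0.23 ± 0.051 (adjusted p = 0.0197). The median slope of the 10 was 0.10 per day beside -0.010 over all genes. Ctsc thus rose over the culture in the same fit over wildtype and knockout arrays in which its knockout level was lower throughout. All 3 Ctsc probes rose when each probe was fitted on its own, by 0.29, 0.37 and 0.32 per day (limma adjusted p = 0.00167, 0.00386 and 0.00163).

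Between day 3 and day 9 the level of Ctss rose 5.98-fold in wildtype and 5.90-fold in knockout, and at each of the 3 steps it was higher than before in both genotypes. Ctsc also rose at each step in both, 2.75-fold in all in wildtype and at least 7.19-fold in knockout, where day 3 was set to the limit of 5.66. Of the tested genes 3.32% rose at each step in both genotypes. Ctsf read 7.12, 8.71, 9.58 and 9.58 in wildtype and 7.81, 9.41, 9.74 and 9.58 in knockout, so that its climb lay before day 7 in wildtype and mostly before day 5 in knockout. Ctsd at day 9 stood 2.04-fold above day 3 in wildtype and 4.04-fold in knockout.

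Leaving out day 3 ended 3 of these calls. Ctss then had a slope of 0.50 per day and kept its call (limma adjusted p = 0.0140), and Ctsc had a slope of 0.33, close to its 0.37 with all days, at an adjusted p of 0.0644. The slopes of Ctsf and Ctsd were smaller without day 3, at 0.13 and 0.15 (adjusted p = 0.374 and 0.266), and 189 genes were called in place of 1638. Without the knockout day 3 array Ctsc and Ctss were called, while Ctsf had a slope of 0.31 (adjusted p = 0.0940) and Ctsd of 0.16 (0.102). Ctsf also lost its call without the wildtype day 3 array, at 0.26 per day (0.0526). Ctsd lost its call without the wildtype day 9 array, the knockout day 9 array or both, at slopes of 0.24, 0.20 and 0.22 (adjusted p = 0.0538, 0.0791 and 0.200). On the deposited processed values Ctsc and Ctss were called, and Ctsf and Ctsd were not, although their slopes there, 0.38 and 0.30, were no smaller (adjusted p = 0.0541 and 0.0532). Without background correction all 4 were called, with smaller slopes of 0.30 for Ctss, 0.22 for Ctsc, 0.24 for Ctsf and 0.11 for Ctsd.

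The other 6 genes did not pass. Their slopes were 0.11 for Ctsa (limma adjusted p = 0.158), 0.098 for Ctsk (0.316), 0.095 for Ctsz (0.122), 0.013 for Ctsh (0.880), 0.0086 for Ctsb (0.863) and -0.0047 for Ctsl (0.960). Ctsa alone among them passed under any alternative, without day 9 (0.24 per day, adjusted p = 0.0452).

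**Figure D4:**
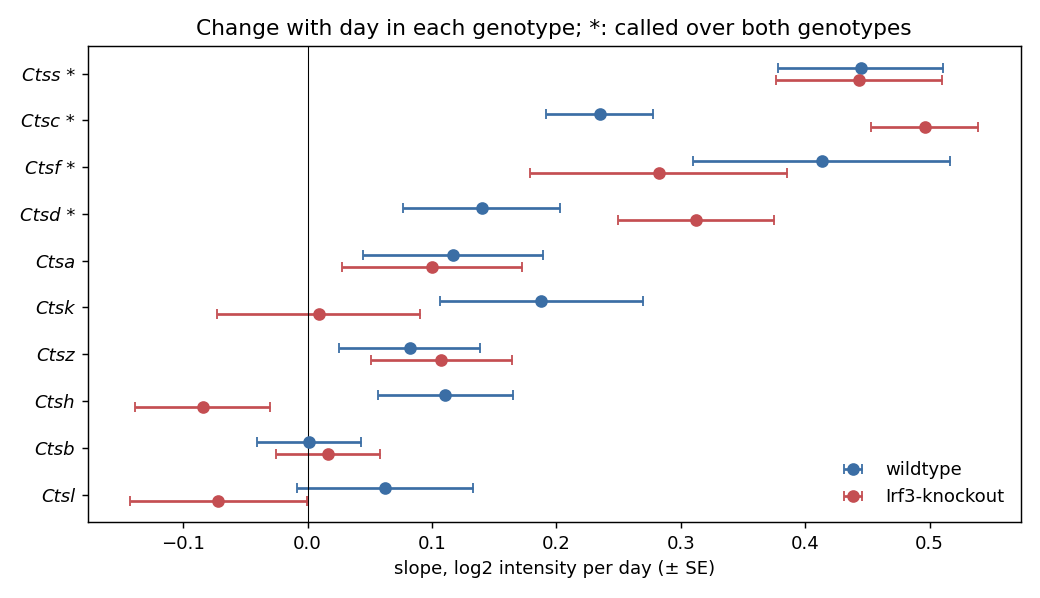
Slope of log2 intensity per day (x axis, ± SE) in wildtype (blue) and Irf3-knockout (red) for the 10 cathepsins (y axis, ordered by the slope over both), with a star at the 4 genes that rose over both genotypes. The points of Ctss coincide at 0.44, those of Ctsc stand at 0.23 and 0.50, and those of Ctsh lie on either side of 0.

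Whether a cathepsin changed at a different pace in knockout was tested as the difference in slope. None of the 10, and 0% of the 9758 genes, passed limma's adjusted p of 0.05, while 2 of the 10 had an unadjusted p under 0.05 beside 6.1% of all genes. These were Ctsc and Ctsh. The slope of Ctsc was 0.23 ± 0.043 (SE) per day in wildtype and 0.50 ± 0.043 in knockout, a difference of 0.26 ± 0.061 (adjusted p = 0.570), in which the knockout day 3 value was not above background. Its other probes gave differences of 0.039 and 0.11 per day, and without background correction the difference of the main probe was 0.015. Ctsh had a slope of 0.11 ± 0.054 in wildtype and -0.084 ± 0.054 in knockout, a difference of -0.20 ± 0.076 (adjusted p = 0.788). The slopes of Ctss, 0.44 in both genotypes, differed by -0.0015 ± 0.094 per day (adjusted p = 0.999).

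Macrophage markers were higher in knockout on average, as Ctss was, and most of them rose with day. Of 28 listed markers 23 were tested, and all 23 had a mean difference above 0 over the 4 days, with a median of 1.58. Of all tested genes 47.2% were above 0, with a median of -0.019. The smallest of the 23 were Lgals3 at 0.049 ± 0.13 and Cx3cr1 at 0.051 ± 0.17 (SE). In the genotype fit 12 of the 23 were called higher, beside 2.74% of all tested genes. With day 18 of the 23 rose, beside 8.54% of all tested genes. The list's median difference was 0.95, 2.01, 1.82 and 1.77 on days 3, 5, 7 and 9, beside 1.29, 2.09, 2.11 and 1.27 for Ctss. The summed normalized intensity of the 23 ranged from 21488 to 71778 over the wildtype arrays and from 35412 to 152728 over the knockout arrays. Itgam and Ptprc were not above background on any wildtype array, and Cd68, Csf1r, Msr1, Cybb and Mpeg1 were not among the tested genes. Itgam and Ptprc passed the filter only through 2 knockout arrays each, so their higher level in knockout adds nothing to these counts. Ptprc is among the 12 called. The part of macrophages in the level of Ctss was not tested, and in bulk RNA fewer cells of a type and less RNA per cell cannot be told apart. Ctsc was lower in knockout on each of the 4 days, while the median of the markers was higher on each.

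**Figure D5:**
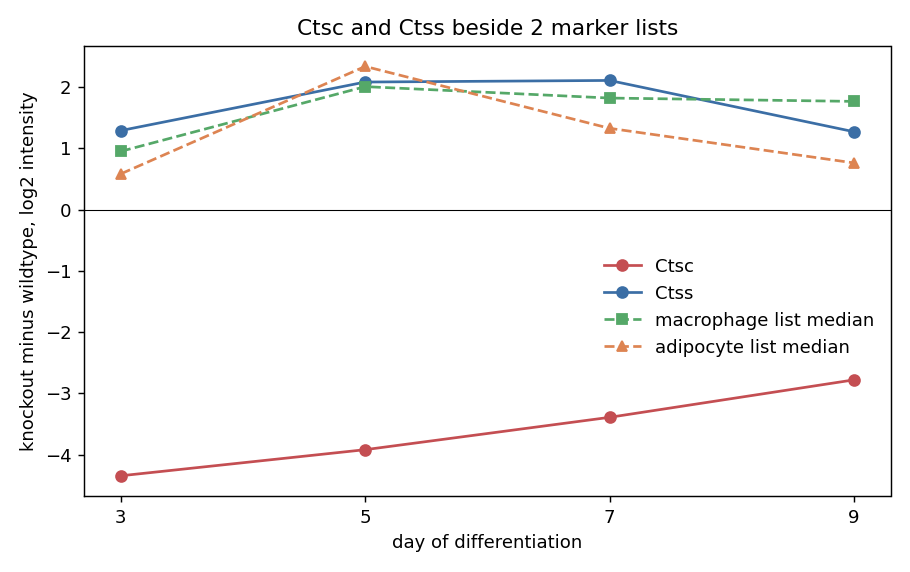
Knockout minus wildtype log2 intensity (y axis) on each day (x axis) for Ctsc, Ctss and the medians of 23 macrophage and 14 adipocyte markers, 1 array per genotype and day. Ctss and both medians lie above 0 on all 4 days and Ctsc lies between -4.35 and -2.78.

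Markers of other cells were counted too. Of all tested genes 2.74% were called higher and 2.11% lower, and 47.2% were above 0 in estimate. Adipocyte markers were higher in knockout, 13 of 14 in estimate and 4 called, with a median difference of 1.49. Fabp4, counted in the 13, was not above background on any wildtype array and passed the filter only through 3 knockout arrays. Plin1, Cidec, Lipe, Retn and Slc2a4 were above background on 2 wildtype arrays. Of 5 mast cell markers, all 5 were lower in estimate (median -0.72) and none passed. Among 4 neutrophil markers S100a8 was higher by 1.81 ± 0.20 (SE; limma adjusted p = 0.00405). The other 3 were below 0 in estimate (list median -0.048), and none was lower by the test. Endothelial markers gave 1 lower of 9 (median -0.40), mesothelial markers 4 lower of 6 (median -1.11), and fibroblast and preadipocyte markers 1 higher of 12 (median -0.12). The lymphocyte list had 1 tested gene of 10, which did not pass. The part of these cells in the cathepsin levels was not tested.

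Ctsc acts on a known set of granule proteases, of which 4 of 12 listed genes were tested. None passed for genotype. The mast cell proteases Tpsb2, a tryptase, and Cma1 and Mcpt4, which are chymases, differed by -1.13 ± 0.28, -0.81 ± 0.31 and -0.72 ± 0.21 (SE; limma adjusted p = 0.0730, 0.208 and 0.109). Prtn3, the neutrophil proteinase, differed by 0.29 ± 0.16 (adjusted p = 0.371). With day Mcpt4 rose by 0.24 ± 0.065 per day (adjusted p = 0.0373) and the others did not pass.

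Of a list of cystatins, serpins and other protease inhibitors, not all known to act on cathepsins, 8 of 26 genes were tested. None passed for genotype, day or difference in slope. For genotype the smallest p belonged to Cst11, a cystatin, at -0.69 ± 0.23, and to Kng1, kininogen, which carries cystatin domains, at -0.74 ± 0.33 (SE; limma adjusted p = 0.160 and 0.273). With day the smallest p belonged to Serping1, the C1 inhibitor, with a slope of 0.12 ± 0.039, and to Kng1, with 0.31 ± 0.11 (adjusted p = 0.0631 and 0.0884). The list of other lysosomal peptidases also held Tpp2, which is largely cytosolic, and Ppt1, a thioesterase. All 7 of its tested genes had differences above 0, from 0.082 to 0.31, beside 47.2% of all tested genes, and none passed. The smallest p belonged to Tpp1, a tripeptidyl peptidase, at 0.31 ± 0.15, and Dpp7, a dipeptidyl peptidase, at 0.29 ± 0.14 (SE; limma adjusted p = 0.319 and 0.320). With day, Cpq, a carboxypeptidase, rose by 0.32 ± 0.068 and Tpp1 by 0.15 ± 0.041 (adjusted p = 0.0155 and 0.0383). Dpp7 had a slope of 0.14 ± 0.042 (adjusted p = 0.0507).

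Genes that sort enzymes to the lysosome gave 1 of 12 higher in knockout, beside 2.74% of all tested genes. This was Sort1, a sorting receptor that fat cells also use for glucose transporter vesicles, at 1.14 ± 0.18 (SE; limma adjusted p = 0.0171). Sort1 also rose with day, by 0.43 ± 0.065 per day (adjusted p = 0.00476), and Ap1g1, an adaptor subunit, fell by 0.11 per day (SE 0.031; adjusted p = 0.0361). Of 8 tested regulators of lysosomal genes, none passed for genotype or day. In the list of class II processing, where Ctss acts, 2 of 7 were higher in knockout, beside the same 2.74%. H2-Ab1 was higher by 1.13 ± 0.15 and the invariant chain Cd74 by 1.41 ± 0.21 (SE; limma adjusted p = 0.00859 and 0.0159). Both were above background on 2 of the 4 wildtype arrays. H2-Aa, also among the 7, passed the filter only through 2 knockout arrays and was not called. Of the 7, 3 rose with day, beside 8.54% of all tested genes. These were H2-DMb1, by 0.32, Ifi30, a lysosomal thiol reductase, by 0.20 and H2-Ab1, by 0.18 per day (limma adjusted p = 0.00262, 0.00772 and 0.00779). No gene of these lists passed for the difference in slope.

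The genes most like Ctsc over the 8 arrays were Nudt6, Rsad2, Mx2, Mgarp and Oas2. Likeness was the root mean square difference between log2 profiles, each centred on its own mean, among 9600 genes, and for these 5 it ran from 0.67 to 0.77, beside 2.004 for the root mean square deviation of Ctsc from its own mean. Closer profiles were found for Ctss, 0.19 to 0.25 beside 1.33, in Lpxn, Nckap1l, Was, Ms4a6d and Tm6sf1. For Ctsk they were Pkig, Manba, Col1a2, Zfp655 and Col14a1, at 0.11 to 0.14 beside 0.44. The 8 arrays share day and genotype across all of these profiles. Mx2 was above background on 4 of the 8 arrays and Nudt6 on 6, so part of their profiles lies at background, as does Ctsc in knockout on day 3. The profile of Ctsc also holds the genotype difference that chose the set, so likeness to it is a description only.

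In the order of genes on GRCm38.p6, Ctsc lies on chromosome 7, as does Irf3, with 143 tested genes between them. Looking at neighbours was decided after the values were seen. Of the 5 tested genes on either side of Ctsc, 1 of 10 passed for genotype beside 4.85% of all genes, Fah, at 0.84 ± 0.14 (SE; limma adjusted p = 0.0197), and the 10 ran from -0.81 (Nox4) to 0.84. Ctsd is on the same chromosome, farther from Irf3, with 464 tested genes between. Ctsk and Ctss are neighbours on chromosome 3, and of the 10 tested genes around Ctss, which ran from -0.31 to 0.078, none passed for genotype.

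A further 13 genes on the array bear a cathepsin name. Of these Ctsr alone was tested, above background on 2 of 8 arrays, and it did not pass for genotype (-0.13 ± 0.18, SE; limma adjusted p = 0.759) or day (adjusted p = 0.992). The rest were above background on 1 array or on none.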

How the data were processed

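Of the 2 tables used, the main one, per the file headers, holds a non-normalized linear intensity for each probe and array, and beside it a detection p-value that the authors deposited. The deposited processed intensity, with a floor at 20 that holds 49.6% of its values, was an alternative, and how the authors made it is not stated. With limma 3.58.1 in R 4.3.3, neqc corrected the background (normexp with the detection p-values, offset 16), followed by quantile normalization and a log2 transform. The filter (above background on 2 or more arrays) left 14232 of 25697 probes, and the probe with the highest mean stood for a gene. Gene names came from the platform's probe table, updated to GRCm38.p6.

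Fits over all 9758 genes used genotype with day as a factor (3 residual degrees of freedom), slope per day with genotype as a term (5), and their interaction (4), with two-sided moderated tests and Benjamini-Hochberg adjustment. A true change of the genotype difference with day counts as error in the genotype fit. Every SE given is limma's moderated one, in which a gene's own spread is drawn toward that of all genes or probes fitted. The fits were tried on simulated log2 values, but background correction, normalization, filter and probe choice were not, and no result of that trial is given here. The number of arrays limits the precision. All members were named; from each gene list up to 4 genes with the smallest p in a fit; and for likeness the 5 closest genes. The members, lists and motifs were chosen with earlier results of these data known. Alternatives covered background, normalization, source table, filter, probe choice, variance prior, the day term and leaving out each day or array.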

Additional observations from a re-analysis of the deposited data

How the results depend on the processing

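The count of cathepsins that rose with day, 4, was 2 on the deposited processed values, and from 1 (without day 3) to 4 when a day or an array was left out. The count with an adjusted p under 0.05 for genotype, 2, was 0 on the deposited processed values and 1 with no day term, that is without the replicate block (paired by day); it was 2 without each single day. The count for the difference in slope was 0 under every alternative run. The direction of Ctsc and Ctss between genotypes was the same under every alternative run, with Ctsc from -3.89 to -2.51 and Ctss from 1.14 to 1.89. Over all genes, the count for genotype, 473, was 1082 without day 3, 199 without day 5, 182 without day 7, 161 without day 9, 94 on the deposited processed values, 771 with a trended and robust prior and 115 with no day term. The count for day, 1638, was 189 without day 3, 820 without day 7, 726 without day 9, 408 without the knockout day 3 array and 916 without the wildtype day 9 array. The 595 genes with an unadjusted p under 0.05 for the difference in slope were 1003 with no filter, 338 without day 7 and 894 without the knockout day 9 array, and 2 genes were called with no background correction and 1 with a trended and robust prior. Arrays were not normalized anew when one was left out. The cause of these shifts was not tested. Signal over background limits Ctsc in knockout on day 3 on every probe. On day 5 it limits ILMN_1238486 and ILMN_3008859 but not the main probe. The levels of Ctsl, and of Ctsd on day 3, were above background but close to it.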
